A study of Mus musculus with 18 samples.

Results

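Wild-type mouse ovaries of E17.5, late in embryonic life (E counts embryonic days), were compared with wild-type ovaries of P0, the day of birth. The comparison takes in the 6 arrays whose titles name these stages and the wild-type genotype, 3 at E17.5 and 3 at P0, out of 18 arrays in all. The other 12 arrays hold wild-type ovaries of E15.5 and ovaries of Elavl2 knockout mice of all 3 stages (Elavl2 is a neuronal and germ cell member of the ELAV genes, whose proteins bind mRNA). The samples were XX gonads, given as female ovary and as a mixed sample type, so each holds every cell type of the organ. The labels name neither strain nor treatment, and do not state whether each replicate is a separate animal. The p-values therefore cover only variation among these samples, which may be technical.

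In the fetal mouse ovary, germ cells enter meiosis, pair and recombine their chromosomes, and arrest in late prophase around birth. In the same days the nests of germ cells break into primordial follicles, each an oocyte enclosed by flat pregranulosa cells, and some oocytes begin to grow and to make the proteins of the egg coat and of the early embryo. Whole-organ RNA adds up germ cells, pregranulosa cells, stroma, vessels and blood. In such RNA, fewer cells of a type and less RNA per cell cannot be told apart.

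Values are log2 signals of a probe relative to the 75th percentile of its array, so a level says nothing about another probe's level. A change is the fitted log2 difference, P0 over E17.5, ± its standard error. The model also has a term for the scan run, because E17.5 replicate 3 was scanned in another run than the other 5 arrays. A fitted change can therefore differ from the plain difference of the group means. Across genes the E17.5 arrays correlated with Pearson's r of 0.9937 between replicates 1 and 2, and of 0.9796 and 0.9827 with replicate 3, while the P0 arrays correlated at 0.9906 to 0.9922. No pair held identical values. All 3 P0 arrays sat on a slide with no other group, so slide and stage cannot be told apart.

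Of 19299 genes tested, 8352 (43.3%) passed the test, which was limma's with a Benjamini-Hochberg adjusted p below 0.05; such genes are termed called. Of these, 4273 (22.1%) were higher and 4079 (21.1%) lower at P0, and the median change of all genes was 0.01. Large changes leaned upward: 1550 genes (8.03%) rose at least 2-fold and 543 (2.81%) fell as much. The 3 arrays of each stage did not overlap for 9783 genes (50.7%), with P0 higher for 4550 (23.6%) and lower for 5233 (27.1%).

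Genes of the zona pellucida, the egg coat, had the highest median change of the 35 lists examined. All 5 of the measured genes for coat and secreted oocyte proteins were called higher, against 22.1% of all genes, with a median change of 5.79, the same with Oosp1 set at its lower bound, and 3.50 with normexp background correction and quantile normalization; the other 4 listed genes were not measured. Zp3, a structural protein of the coat, stood at -2.80, -4.01 and -1.13 in E17.5 replicates 1, 2 and 3 and at 2.99, 3.04 and 2.79 in P0 replicates 1, 2 and 3. The E17.5 arrays were all far below the P0 arrays, and replicate 3 was the highest of them. Zp3 rose by 5.99 ± 0.44, a 63.8-fold change (limma, adjusted p = 1.81e-06).

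Zp1, which cross-links the coat filaments, was measured at -5.27, -5.52 and -3.04 at E17.5, where 2 of 3 arrays were well above background, and at 0.55, 0.41 and 0.10 at P0. Its change was 5.79 ± 0.41 (adjusted p = 1.48e-06). Zp2, a coat protein that is cleaved after fertilisation, read -2.95, -3.43 and -1.42 and then 1.67, 1.70 and 1.39, a change of 4.22 ± 0.62 (adjusted p = 0.000203). For both genes the stages were fully separate and E17.5 replicate 3 was again the highest of its group. Astl encodes ovastacin, the protease that cleaves ZP2; it went from -6.57, -7.14 and -4.16 to -0.91, -0.83 and -0.93 (5.89 ± 0.64, adjusted p = 2.49e-05), with 1 of 3 E17.5 arrays well above background. Oosp1, an oocyte-secreted protein gene, was not well above background on any E17.5 array (-7.82, -7.67 and -8.11) and read -2.15, -2.01 and -2.71 at P0, at least 12.6-fold higher (adjusted p = 9.4e-09). Such a lower bound sets the P0 mean against the dimmest signal that counts as well above background.

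The probes of Zp3 (chromosome 5, 136463460 to 136464310) and Oosp1 (chromosome 19, 11742173 to 11742232) are placed here on build mm9, as the array files give them. FIGLA, an oocyte transcription factor, binds E-boxes (CANNTG) in zona gene promoters, and the 250 bases before the start are shown for 3 of the coat, secreted and maternal-effect genes that rose, from RefSeq on assembly GRCm38.p6. Capitals mark every CANNTG, read 5′ to 3′ on the gene's strand. In Zp3 they begin 181, 134 and 55 bases before the start, in Zar1 83 and 25 bases, and in Oosp1 249, 194, 93, 59 and 48 bases.
Zp3, chr5:135979855-135980104, plus strand: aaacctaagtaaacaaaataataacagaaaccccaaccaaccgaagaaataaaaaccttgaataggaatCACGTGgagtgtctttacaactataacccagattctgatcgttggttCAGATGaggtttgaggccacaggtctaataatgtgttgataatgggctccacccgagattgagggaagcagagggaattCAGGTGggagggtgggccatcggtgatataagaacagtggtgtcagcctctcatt
Zar1, chr5:72581085-72581334, minus strand: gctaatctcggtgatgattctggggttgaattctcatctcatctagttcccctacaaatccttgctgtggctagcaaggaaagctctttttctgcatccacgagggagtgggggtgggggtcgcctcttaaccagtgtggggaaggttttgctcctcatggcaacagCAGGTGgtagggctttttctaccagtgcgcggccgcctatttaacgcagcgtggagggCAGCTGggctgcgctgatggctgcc
Oosp1, chr19:11691052-11691301, minus strand: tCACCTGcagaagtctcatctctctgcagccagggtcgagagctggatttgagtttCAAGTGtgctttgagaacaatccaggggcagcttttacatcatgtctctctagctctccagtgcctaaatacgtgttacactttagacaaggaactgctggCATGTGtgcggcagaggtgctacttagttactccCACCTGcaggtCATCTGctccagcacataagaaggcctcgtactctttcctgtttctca

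The motif CANNTG was found on either strand in 66.1% of 27018 promoters of that table, the narrower CAGGTG, each copy of which is also a CANNTG, in 17.1%, and TAATTG, the element that NOBOX binds, in 7.34%. Of the 30 zona and maternal-effect genes called higher at P0, 22 had a promoter in the table: 18 (81.8%) held CANNTG, 13 (59.1%) CAGGTG and 3 (13.6%) TAATTG. None of the 3 promoters printed holds TAATTG. These are letter matches in a short window and show no binding.

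Maternal-effect genes, whose products are stored in the egg for the early embryo, rose with the coat genes. Of 30 measured, 25 rose (83.3% against 22.1% of all genes) and 2 fell, with a median change of 3.17. The subcortical maternal complex, a protein assembly under the egg membrane, rose together. Nlrp5 (also called MATER) read -2.26, -1.58 and 0.14 at E17.5 and 1.61, 2.26 and 1.48 at P0, a change of 3.35 ± 0.51 (limma, adjusted p = 0.000275). Its partner Ooep went from -0.44, -0.32 and 0.68 to 3.94, 3.89 and 3.58 (3.90 ± 0.48). In both, E17.5 replicate 3 lay nearest to P0 without reaching it.

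Khdc3, also of that complex, rose from -2.52, -3.21 and -1.18 to 2.85, 2.94 and 2.60 (5.25 ± 0.55, adjusted p = 2.04e-05). Tle6 went from 4.14, 4.0 and 4.46 to 5.88, 6.13 and 5.85, a smaller rise of 1.78 ± 0.14 (adjusted p = 2.65e-06). Padi6, of the egg's cytoplasmic lattices, went from 0.17, -0.53 and 1.79 to 4.88, 4.96 and 4.58 (4.60 ± 0.58). These 5 genes all rose, by 1.78 to 5.25.

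Zar1, needed at the switch from egg to embryo, stood at -4.50, -5.07 and -3.69 before birth and 1.24, 1.53 and 1.11 at P0, a change of 5.81 ± 0.38 (adjusted p = 8.51e-07). Npm2, the nucleoplasmin that remodels chromatin in the egg, rose from -1.22, -1.82 and -0.59 to 3.21, 3.46 and 3.18 (4.66 ± 0.23, adjusted p = 1.23e-07). H1f8, the oocyte linker histone, went from 0.17, -1.18 and 0.56 to 3.87, 4.03 and 3.94 (4.20 ± 0.51). For all 3 genes every P0 array lay above every E17.5 array, and the P0 arrays lay close together. Dppa3 (stella), which protects the maternal genome's methylation, rose from 4.72, 4.79 and 5.25 to 6.55, 6.67 and 6.47 (1.58 ± 0.43, adjusted p = 0.0108); without E17.5 replicate 1 or 2 the adjusted p was 0.0591 or 0.0557. Zfp57, a guardian of imprints, rose by 1.28 ± 0.13. The 2 members that fell were Trim28 (-0.38 ± 0.10), a co-repressor, and Ago2 (-0.88 ± 0.15), a slicer of the RNA interference pathway, whose call was lost when a gene's probes were averaged.

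Among 8 measured NLRP genes expressed in oocytes, 6 rose (75% against 22.1% of all genes). The median change of the 8 was 2.67, and 1.2 with normexp background correction and quantile normalization. Nlrp14 read -2.25, -3.93 and -1.10 at E17.5 and 3.65, 3.62 and 3.18 at P0, with a change of 5.99 ± 0.72 (adjusted p = 5.08e-05). Nlrp4f, one of a large gene cluster, went from 0.26, -0.31 and 0.99 to 3.48, 3.59 and 3.28 (3.12 ± 0.56), and Nlrp4a rose by 3.59 ± 0.33. The probes of this family may share signal with near-identical copies.

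**Figure D1:**
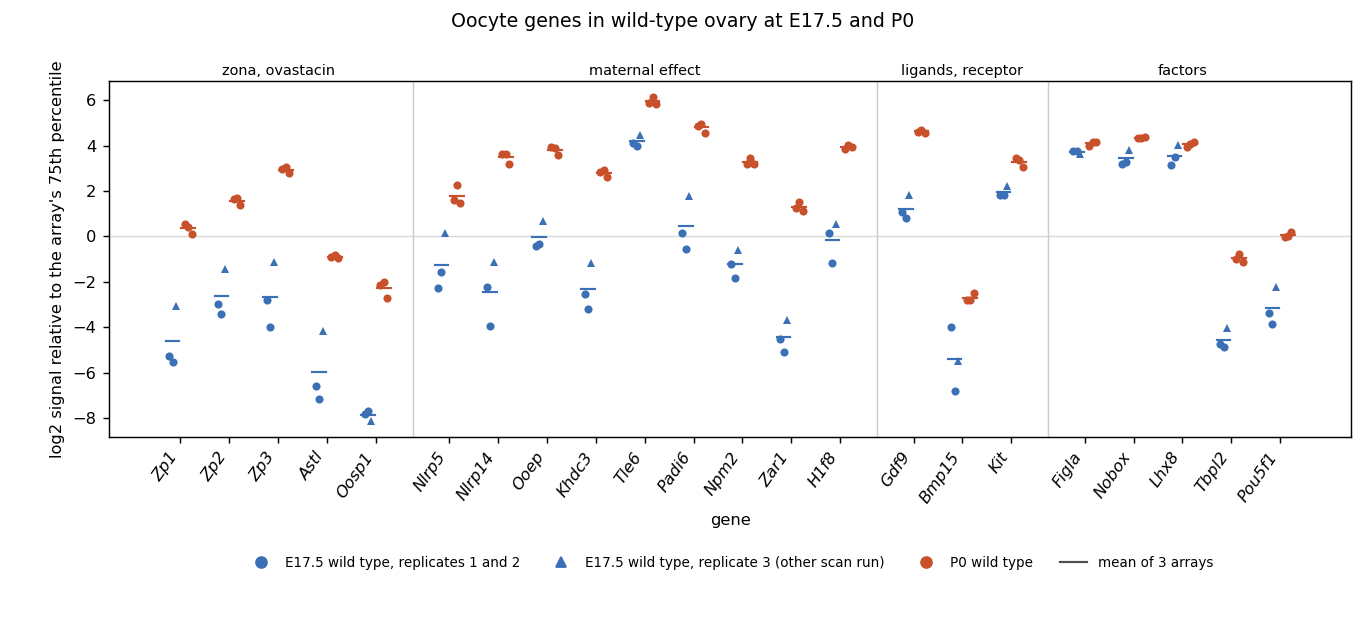
Log2 signal relative to the array's 75th percentile of 22 oocyte genes on each wild-type array, E17.5 in blue and P0 in red, with a short line at the mean of 3 arrays and a triangle for E17.5 replicate 3, which came from the other scan run. For Zp3 the E17.5 arrays lie between -4.01 and -1.13 and the P0 arrays between 2.79 and 3.04, whereas the 2 stages of Figla and Lhx8 lie close together.

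Other genes, some of them known from oocytes, were among the 15 largest fitted rises. For genes not well above background at E17.5 the fitted rise is not an exact size, so the 15 have no firm order. Khdc1a, a KH-domain gene of eggs and early embryos, was not well above background at E17.5 and at least 23.7-fold higher at P0 (limma, adjusted p = 4.03e-06). Oas1c and Oas1d, oocyte-expressed relatives of the 2′-5′ oligoadenylate synthetases, rose by 4.97 ± 0.30 and 5.05 ± 0.77, and Oas1h by 5.78 ± 1.06 with 1 of 3 E17.5 arrays well above background. Ifi207, an interferon-inducible gene, was at least 26.3-fold (adjusted p = 1.76e-05), Trav9n-2, a T cell receptor segment, at least 10.2-fold (adjusted p = 1.3e-05) and Gtsf1l, a relative of a piRNA factor, at least 6.49-fold higher (adjusted p = 1.46e-05). None of these was well above background on an E17.5 array. Slco4a1, an organic anion transporter gene, rose by 4.86 ± 0.43, with 1 of 3 E17.5 arrays well above background. The rest of the 15 were Zp3, Nlrp14, Astl, Zar1, Zp1, Oosp1 and Khdc3.

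Most of the 15 genes with the largest fitted falls were not well above background at P0, so their falls are bounds. Sult1b1, a sulfotransferase gene, read -3.65, -3.90 and -3.90 at E17.5 and -6.66, -6.49 and -6.27 at P0, where it was not well above background, at least 3.40-fold lower (adjusted p = 3.35e-05). Hoxd1, a homeobox gene, was at least 3.68-fold lower (adjusted p = 3.35e-05), and Bhmt2, of methionine metabolism, at least 2.09-fold (adjusted p = 3.7e-05). Oprk1, the kappa opioid receptor gene, fell by 2.54 ± 0.37, with 2 of 3 P0 arrays well above background. Dct, a melanin synthesis gene, fell by 2.80 ± 0.49, also with 2 of 3, and its other probe differed by -2.53. For 2 of the 15 falls, Nkx2-4 and Kcnj4, another probe of the gene differed by 0.35 and -0.08 and so did not show the change.

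Of 21 ligand and receptor genes of signalling between oocyte and follicle cells, 7 rose (33.3% against 22.1% of all genes) and 6 fell (28.6% against 21.1%); without E17.5 replicate 2, or without the run term, 3 fell. Gdf9, the oocyte ligand that drives follicle growth, read 1.06, 0.82 and 1.81 at E17.5 and 4.61, 4.71 and 4.57 at P0, a rise of 3.42 ± 0.29 (limma, adjusted p = 4.73e-06). Its close relative Bmp15 went from -3.98, -6.79 and -5.47 to -2.79, -2.80 and -2.48 (2.55 ± 0.64, adjusted p = 0.00643), with 2 of 3 E17.5 arrays well above background. The stages did not overlap in either gene.

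Kit, the receptor of the growing oocyte, rose from 1.82, 1.84 and 2.23 to 3.45, 3.38 and 3.05 (1.30 ± 0.28, adjusted p = 0.00266). Kitl, its ligand from the somatic cells, fell from 2.90, 3.03 and 2.91 to 1.85, 1.81 and 2.14 (-1.0 ± 0.13, adjusted p = 9.24e-05). Receptor and ligand thus changed in opposite directions with no overlap between stages. Gja4, the oocyte's gap junction connexin, rose from 1.5, 1.71 and 2.19 to 3.42, 3.17 and 3.06 (1.53 ± 0.13).

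Of the transcription factors that start the oocyte programme, 3 did not pass the test. Figla stood at 3.75, 3.75 and 3.64 at E17.5 and 4.01, 4.14 and 4.18 at P0, a change of 0.28 ± 0.22 that was not called (limma, adjusted p = 0.311). Nobox changed by 0.85 ± 0.40 (adjusted p = 0.0986) and Lhx8 by 0.59 ± 0.41 (adjusted p = 0.263), neither called. Fitted on the arrays of both stages alone all 3 were called. In that fit the run term takes up all of E17.5 replicate 3, so P0 is compared with E17.5 replicates 1 and 2 only. Nobox was also called without E17.5 replicate 3 (1.11, adjusted p = 0.029). The levels at P0 lay above those at E17.5 for Figla and Nobox and overlapped for Lhx8. Of 11 measured oocyte factors, 4 rose (36.4% against 22.1% of all genes) and 1 fell (9.09% against 21.1%). Without E17.5 replicate 1 or 2, 2 rose, and 8 rose in the fit on both stages alone. Tbpl2, the TATA-binding protein variant of growing oocytes, rose from -4.75, -4.87 and -4.01 to -1.0, -0.77 and -1.10 (3.94 ± 0.41, adjusted p = 2.1e-05). Stat3 rose by 1.27 ± 0.19. Taf7l, a germ cell TFIID subunit gene, fell from 4.30, 4.35 and 4.51 to 3.39, 3.01 and 3.72 (-1.07 ± 0.19, adjusted p = 0.000798).

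Genes first known from primordial germ cells and pluripotent cells also rose in part. Of 24, 10 rose (41.7% against 22.1% of all genes) and 4 fell (16.7% against 21.1%), and 2 fell without E17.5 replicate 1. Pou5f1 (OCT4) read -3.36, -3.87 and -2.21 at E17.5 and -0.02, 0.00 and 0.21 at P0, a change of 3.43 ± 0.46 (limma, adjusted p = 0.000117). Lin28a, which blocks let-7 processing, went from -4.51, -4.78 and -3.19 to -1.05, -0.95 and -1.34 (3.25 ± 0.51). Tfap2c, a germ cell specification factor, rose from -5.42, -4.51 and -4.42 to -2.35, -2.54 and -2.83 (2.51 ± 0.34). In all 3 genes the P0 arrays were well apart from the E17.5 arrays. Sox2 went the other way and was called lower, a call lost under 1 of the 19 settings that tested it (-1.97 to -0.21). Fut4 had negative changes under all 20 settings (-0.85 to -0.54).

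Among genes of meiotic prophase, more were called lower than higher at P0. Of 36 measured recombination genes, 16 fell (44.4% against 21.1% of all genes) and 6 rose, with a median change of -0.41. Spo11, which makes the DNA breaks that start recombination, read -1.09, -0.91 and -0.65 at E17.5 and -2.89, -3.09 and -2.53 at P0, a fall of 1.82 ± 0.15 on the log2 scale (limma, adjusted p = 4.83e-06). Dmc1, the meiotic strand-exchange protein, went from -2.45, -2.54 and -2.73 to -4.61, -4.98 and -4.08 (-2.01 ± 0.22, adjusted p = 2.35e-05). The stages did not overlap in either gene.

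Msh4, which stabilises crossover intermediates, changed by -1.47 ± 0.09 (adjusted p = 5.87e-07), from -1.02, -0.96 and -1.12 to -2.38, -2.58 and -2.48. Mei1, needed for break formation, changed by -1.30 ± 0.12, and Majin, which ties telomeres to the nuclear envelope, by -1.27 ± 0.13. Partners of the same processes rose. Mnd1, a helper of DMC1, rose from 1.58, 1.73 and 1.80 to 2.74, 2.65 and 2.92 (1.06 ± 0.12, adjusted p = 2.9e-05). Rec114, a break-formation cofactor, rose by 0.83 ± 0.11 and Kash5, a link from telomeres to dynein, by 0.95 ± 0.11.

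Of 14 measured genes of the synaptonemal complex and its chromosome axes, 9 fell (64.3% against 21.1% of all genes) and 1 rose. The median change of the list was -0.42. Hormad1, an axis protein, went from 1.30, 1.66 and 1.52 to 0.33, 0.26 and 0.91 (-0.99 ± 0.16), and Sycp2, of the lateral element, from 0.67, 0.77 and 0.66 to -0.17, -0.38 and -0.00 (-0.97 ± 0.15, adjusted p = 0.000249). Tex12, of the central element, fell from 2.31, 2.47 and 2.32 to 1.76, 1.33 and 1.79 (-0.78 ± 0.12). In these 3 genes every P0 array was lower than every E17.5 array. Sycp3 (-0.06) and Syce1 (0.05) did not pass the test. The riser Syce2 (0.43, adjusted p = 0.04) lost its call without any single array other than E17.5 replicate 3 (adjusted p of 0.069 to 0.13).

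Stra8, which retinoic acid induces at meiotic entry, had been high at E15.5 (mean 4.67) and was low on all 6 arrays here: -2.46, -3.67 and -3.61 at E17.5 and -4.28, -3.71 and -3.80 at P0. Its change of -0.57 ± 0.45 was not called (adjusted p = 0.326). Meioc, which keeps germ cells in prophase, fell from 0.55, 0.41 and 0.44 to -1.87, -2.31 and -1.09 (-2.19 ± 0.26, adjusted p = 5.47e-05). Ythdc2, its RNA-binding partner, changed by -0.50 ± 0.08. Cyp26b1, which degrades retinoic acid, rose by 1.02 ± 0.16. Among 19 genes of meiotic entry and retinoic acid 4 rose (21.1% against 22.1% of all genes) and 6 fell (31.6% against 21.1%). Without E17.5 replicate 1 or P0 replicate 1, 3 fell, and 2 rose when a gene's probes were averaged.

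**Figure D2:**
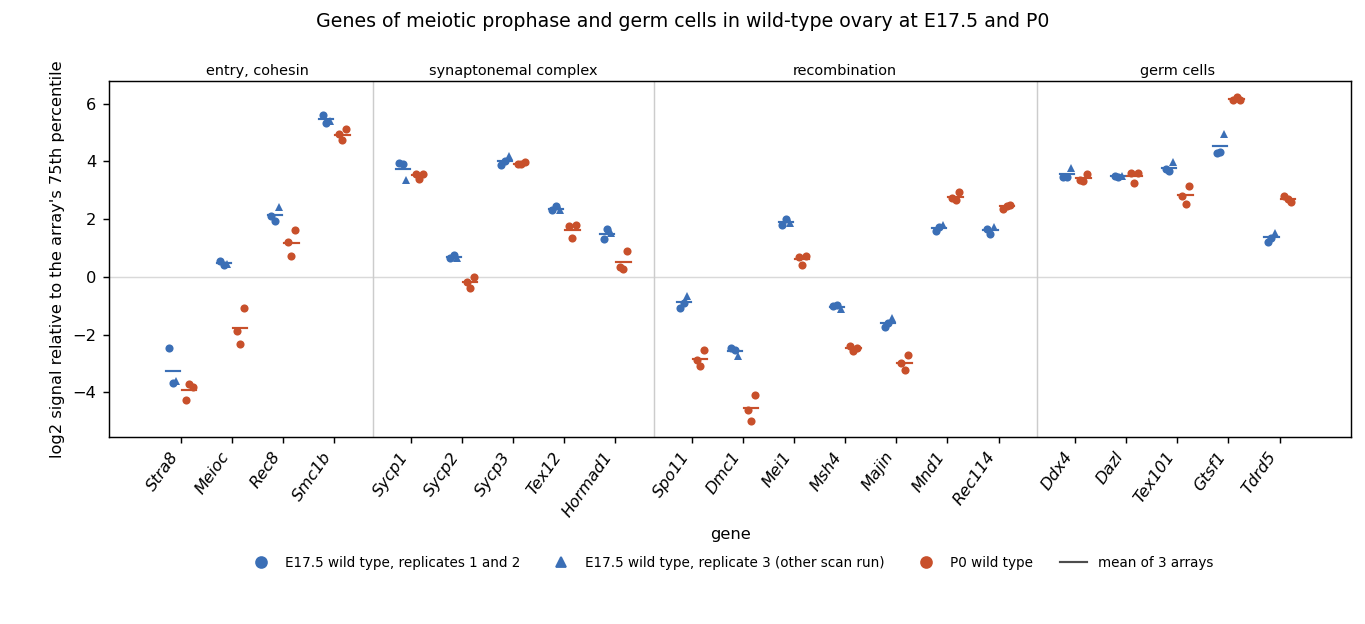
Log2 signal relative to the array's 75th percentile of meiosis and germ cell genes on each wild-type array, E17.5 in blue and P0 in red, with a short line at the mean of 3 arrays and a triangle for E17.5 replicate 3. Dmc1 and Spo11 drop at P0 with no overlap, Mnd1 and Rec114 rise, and Ddx4 and Dazl overlap between the stages.

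The general germ cell genes Ddx4 and Dazl did not pass the test. Ddx4, the germ cell RNA helicase, stood at 3.47, 3.46 and 3.78 and then at 3.37, 3.32 and 3.57 (-0.17, adjusted p = 0.375). Dazl, a translational regulator, stood at 3.51, 3.48 and 3.50 and then at 3.61, 3.27 and 3.61 (-0.07, adjusted p = 0.702). The stages overlapped for both. Of 30 general germ cell genes 5 rose and 7 fell, a share near that of all genes. Gtsf1, a piRNA pathway factor, rose from 4.30, 4.33 and 4.95 to 6.12, 6.22 and 6.12 (1.63 ± 0.26, limma, adjusted p = 0.000363), and Tdrd5, of the germ granules, by 1.30 ± 0.18. Tex101, a germ cell surface protein gene, fell from 3.72, 3.68 and 3.96 to 2.78, 2.54 and 3.16 (-0.85 ± 0.13).

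Of 38 regulators of stored and translated RNA, 15 rose (39.5% against 22.1% of all genes) and 7 fell (18.4% against 21.1%). With arrays scaled by their median the counts were 10 and 8. Cpeb3, a polyadenylation-element binding protein, rose from -0.38, -0.49 and -0.16 to 1.26, 1.17 and 0.93 (1.45 ± 0.15, limma, adjusted p = 2.33e-05). Patl2, an oocyte repressor of translation, rose by 1.71 ± 0.13 (adjusted p = 2.18e-06). Boll, the DAZ family member of meiotic cells, fell from -1.72, -1.30 and -1.33 to -2.81, -3.16 and -2.37 (-1.32 ± 0.21), and Igf2bp1, an mRNA-binding protein of growth, by 1.22 ± 0.20. Elavl2 itself, on chromosome 4 (mm9 90918411 to 90918470), rose from 3.58, 3.60 and 3.35 to 4.5, 4.59 and 4.48 (0.86 ± 0.13, adjusted p = 0.000264). Of 20 genes of DNA methylation, 7 rose (35% against 22.1%) and 3 fell (15% against 21.1%). But 5 rose and 8 fell under median scaling, and 4 and 1 without E17.5 replicate 1. Uhrf1, which guides maintenance methylation, rose by 0.90 ± 0.13 and Dnmt1, the maintenance enzyme, by 0.58 ± 0.11.

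Of 38 pregranulosa genes, 9 rose (23.7% against 22.1% of all genes) and 13 fell (34.2% against 21.1%), with a median change of -0.20. Lgr5, a WNT co-receptor and marker of late-forming pregranulosa cells, read 2.63, 2.69 and 2.50 at E17.5 and 1.97, 1.56 and 1.61 at P0 (-0.97 ± 0.13, limma, adjusted p = 0.000116). Lhx9, a gonad-forming homeobox gene, went from 2.44, 2.19 and 2.0 to 1.41, 1.38 and 1.38 (-0.83 ± 0.14). Bmp2, a ligand of the fetal supporting cells, went from -2.25, -2.33 and -2.93 to -3.75, -4.40 and -4.02 (-1.73 ± 0.17, adjusted p = 1.34e-05). None of these 3 genes overlapped between stages.

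Inha, the inhibin alpha subunit, rose from 2.02, 2.02 and 1.64 to 3.27, 3.23 and 3.11 (1.2 ± 0.12, adjusted p = 1.18e-05). Nr5a2, a nuclear receptor of granulosa cells, rose from -0.64, -0.54 and -0.88 to 1.07, 0.82 and 0.81 (1.33 ± 0.20). Cyp19a1, the aromatase gene, rose from -3.54, -3.49 and -3.15 to -2.07, -2.55 and -1.64 (1.31 ± 0.22). All P0 arrays exceeded all E17.5 arrays in these genes. Esr2, the granulosa oestrogen receptor, rose by 1.15 ± 0.19 and Hsd17b1, which makes oestradiol, by 1.33 ± 0.25. Inhba, the activin and inhibin beta A subunit, changed by -0.96 ± 0.16.

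In the Notch pathway, through which oocytes signal to pregranulosa cells, 5 of 22 genes rose and 6 fell, shares near those of all genes. The ligand Jag1 rose from -0.01, -0.18 and -0.13 to 1.90, 1.97 and 1.95 (1.90 ± 0.18, limma, adjusted p = 1.21e-05). The receptor Notch2 stood at 1.60, 1.49 and 1.61 and then at 1.71, 1.62 and 1.18, and was not called (-0.11). The target genes Hey2 and Heyl rose, Hey2 from -4.57, -3.92 and -4.04 to -2.69, -2.56 and -2.90 (1.48 ± 0.17) and Heyl from 1.34, 1.24 and 1.33 to 1.83, 2.07 and 2.20 (0.72 ± 0.11). Jag1, Hey2 and Heyl were thus separate between stages while Notch2 overlapped. Hey1, another target, was called higher too. The target Hes5 was called lower, a call lost under 5 of 20 settings (-0.73 to -0.34 over the 20), and Hes1 was not called. Another ligand, Dll1, changed by -0.73, and the vessel-associated receptors Notch3 and Notch4 by -0.69 and -0.44.

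Of 34 WNT pathway genes, 15 fell (44.1% against 21.1% of all genes) and 5 rose, with a median change of -0.28. Wnt5a, a ligand of the stroma, went from 0.90, 0.87 and 0.74 to -0.15, -0.17 and 0.30 (-0.90 ± 0.14, limma, adjusted p = 0.000333). Wnt4, which sets ovarian fate, went from 2.02, 2.07 and 1.99 to 1.56, 1.49 and 1.64 (-0.45 ± 0.12, adjusted p = 0.00773). Wnt3 was at least 2.42-fold lower (adjusted p = 8.06e-05) and not well above background at P0. Rspo2, an R-spondin made by oocytes, went the other way, from -0.90, -0.85 and -0.23 to 1.21, 1.27 and 1.07 (1.86 ± 0.24, adjusted p = 7.91e-05). The stages were separate for Wnt4, Wnt5a and Rspo2.

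Of 14 hedgehog genes, 4 rose (28.6% against 22.1% of all genes) and 7 fell (50% against 21.1%). Dhh, the ligand of granulosa cells, rose from -1.99, -2.13 and -1.92 to -1.30, -1.13 and -1.38 (0.72 ± 0.12, adjusted p = 0.000419), and Hhat, which attaches its lipid, by 1.16. The co-receptor Boc went from 1.55, 1.59 and 1.68 to 0.90, 0.69 and 0.72 (-0.78 ± 0.09), with no overlap. In the TGF-beta and BMP list, 7 of 37 rose and 14 fell (37.8% against 21.1% of all genes), and 12 rose with array weights. The ID genes, targets of BMP signalling, fell: Id3 from 3.79, 3.79 and 3.63 to 2.85, 2.71 and 2.75 (-0.96 ± 0.10, adjusted p = 1.83e-05), Id1 by 0.92 ± 0.15, Id2 by 0.65 and Id4 by 1.23 ± 0.14. The inhibitor Smad6 changed by -1.07 ± 0.10, while the ligand Bmp4 rose by 0.79 ± 0.12.

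**Figure D3:**
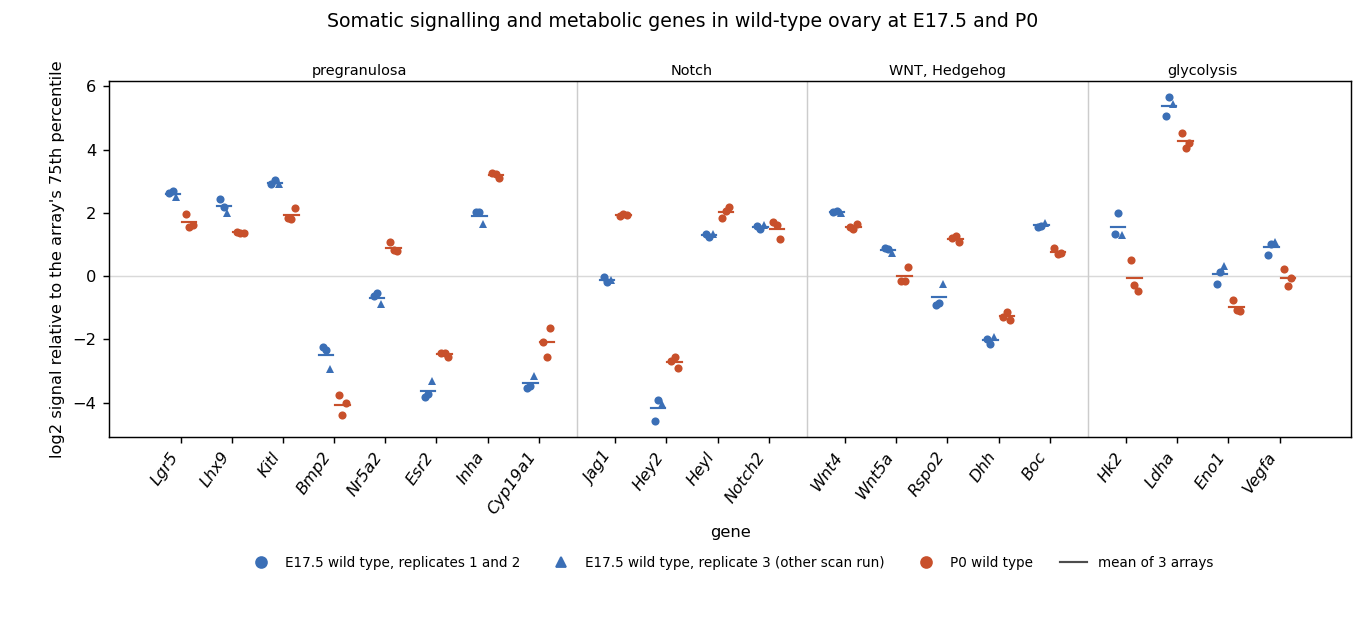
Log2 signal relative to the array's 75th percentile of supporting cell, Notch, WNT, hedgehog and glycolysis genes on each wild-type array, E17.5 in blue and P0 in red, with a short line at the mean of 3 arrays and a triangle for E17.5 replicate 3. Lgr5, Kitl and Hk2 are lower at P0 and Inha, Jag1 and Rspo2 higher, with no overlap, while Notch2 overlaps.

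Of 31 glycolysis and hypoxia genes, 19 fell (61.3% against 21.1% of all genes) and 3 rose, with a median change of -0.46. Hk2, the hexokinase that starts glycolysis, went from 1.34, 2.01 and 1.29 to 0.51, -0.26 and -0.46 (-1.75 ± 0.27, limma, adjusted p = 0.000291). Ldha, lactate dehydrogenase, went from 5.06, 5.65 and 5.43 to 4.54, 4.07 and 4.20 (-1.07 ± 0.18), and Vegfa, the vessel growth factor, from 0.65, 1.02 and 1.07 to 0.22, -0.30 and -0.07 (-0.90 ± 0.15). P0 replicate 1 was the highest P0 array in each of the 3 genes, still below all E17.5 arrays. Ankrd37, a target of hypoxia-inducible factor, changed by -1.16 ± 0.20. Pfkfb3, which makes the allosteric activator of phosphofructokinase, rose by 0.85 ± 0.15.

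Of 29 cholesterol genes, 13 rose (44.8% against 22.1% of all genes) and 5 fell (17.2% against 21.1%). Without E17.5 replicate 1, 9 rose, and 3 fell without E17.5 replicate 1 or 2 or P0 replicate 2. Fdft1, the squalene synthase gene, rose from 1.56, 1.68 and 2.23 to 2.72, 2.73 and 2.79 (1.09 ± 0.11, adjusted p = 1.19e-05), with no overlap. Fasn, for fatty acid synthesis, fell from 5.04, 4.95 and 5.26 to 4.27, 4.27 and 4.21 (-0.78 ± 0.10).

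Of 31 cell division genes, 9 rose (29% against 22.1% of all genes) and 1 fell (3.23% against 21.1%). Without E17.5 replicate 2 or P0 replicate 2, or with median scaling, 6 rose. Cdk1, the mitotic kinase, which also drives oocyte maturation, rose from 1.26, 1.24 and 1.66 to 1.95, 2.10 and 1.89 (0.76 ± 0.10, limma, adjusted p = 8.96e-05). Ccnb1, Aurka, Cdc20 and Tyms also had positive changes under all 20 alternative settings (0.73 to 1.01, 0.43 to 0.75, 0.37 to 0.72 and 0.68 to 1.04). The proliferation markers Mki67 (-0.20) and Pcna (0.12) were not called. Trp63, the p53 family member that guards the oocyte genome, rose from 0.85, 0.91 and 1.34 to 3.23, 3.38 and 3.15 (2.10 ± 0.40, adjusted p = 0.00117). Csnk1e, a casein kinase that can activate TAp63, rose from 4.68, 4.78 and 4.63 to 5.66, 5.77 and 5.70 (0.99 ± 0.08). Both kept the stages apart. Perp, a target of p53 and p63, rose by 1.57 ± 0.22, whereas the p53 target Cdkn1a went from -0.64, -0.62 and -0.52 to -1.50, -1.91 and -1.52 (-0.98 ± 0.15).

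Of 28 BCL2 family and cell death genes, 6 rose and 8 fell (21.4% and 28.6%, against 22.1% and 21.1% of all genes). The falls were 5 without P0 replicate 1 and 3 when a gene's probes were averaged. Bbc3 (PUMA) and Bik, pro-death members, rose by 0.74 ± 0.19 and 1.27 ± 0.20, and Bad changed by -0.75. Bcl2l10, another family member, had larger positive changes, 2.43 to 3.03 over the 20 alternative settings. Bax (0.09) and Bcl2l1 (-0.12) did not pass the test. Of 25 genes of oocyte dormancy and the PI3K pathway, 3 rose (12% against 22.1%) and 5 fell (20% against 21.1%). There were 2 to 6 falls when an array was left out and 9 under median scaling. Pik3ca, the catalytic subunit, changed by -0.63 ± 0.06 and Eif4ebp1, a brake on translation, rose by 0.80 ± 0.09.

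Of 32 stroma genes, 8 rose and 6 fell (25% and 18.75%, against 22.1% and 21.1% of all genes). Without E17.5 replicate 1, 5 rose, and median scaling gave 4 and 10. Cnn1, a smooth muscle calponin, rose from -1.62, -1.56 and -0.86 to 0.73, 0.73 and 0.79 (2.15 ± 0.18, limma, adjusted p = 5.02e-06), with no overlap. Ly6a (SCA-1), a progenitor surface protein gene, rose by 2.36 ± 0.28 and Mfap5, of microfibrils, by 1.92 ± 0.34. Twist1, a mesenchymal factor, changed by -0.71. Msln, a mesothelial surface gene, rose from -0.66, -0.52 and -0.37 to 0.76, 0.49 and 0.88. In the surface epithelium list, 3 of 18 rose (16.7%) and 5 fell (27.8%). Under median scaling 1 rose and 8 fell.

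The arrays carried genes of other cell types, and their part in the results above was not tested. Red cell genes varied among the P0 arrays: the summed red cell level was 9.27, 9.0 and 8.76 at E17.5 and 7.24, 8.79 and 7.53 at P0. The summed macrophage and leukocyte level was 6.06, 6.19 and 6.80 and then 4.19, 6.83 and 4.54. P0 replicate 2 was the highest P0 array for both. A summed level rests mostly on the brightest genes of a list. The median level of the macrophage and leukocyte genes varied less, at -0.85, -0.73 and -0.86 at E17.5 and -1.46, -1.06 and -1.40 at P0. Of 22 red cell genes 4 fell (18.2% against 21.1% of all genes), with 1 to 5 falls when an array was left out. Of 30 macrophage genes 3 rose (10% against 22.1%) and 1 fell (3.33% against 21.1%). The macrophage counts were 2 and 10 under median scaling and 1 and 6 without P0 replicate 2. Without P0 replicate 2, 6672 genes were called in place of 8352. Of the 337 called genes that could be named, 40 then lost their call (14 to 61 over the 6 single arrays left out). Zp3, Dmc1, Jag1, Lgr5 and Hk2 stayed called without any single one of the 6 arrays. These are picked genes, and their calls do not test the part of other cell types.

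Of 24 endothelial genes, 3 rose (12.5% against 22.1% of all genes) and 9 fell (37.5% against 21.1%). There were 16 falls under median scaling and 15 with array weights. Pecam1, the pan-endothelial adhesion molecule, and Flt1, a VEGF receptor, changed by -0.59 and -0.77, while Prox1, the lymphatic factor, rose from -3.35, -3.43 and -3.27 to -1.97, -1.99 and -2.06 (1.25 ± 0.16, limma, adjusted p = 7.37e-05). The summed adrenal level was 0.63, 0.59 and 0.62 and then 1.55, 1.48 and 1.32. Of 9 measured adrenal genes 4 rose (44.4% against 22.1% of all genes), and 2 with normexp background correction and quantile normalization. Among the 4 were Th (2.48 ± 0.58) and Chga (1.32), both of chromaffin cells and neurons. The adrenal cortex genes Mc2r and Akr1b7 were called higher too, with calls lost under 1 and 6 of 20 settings. Of 11 Sertoli and fetal testis genes 6 rose (54.55% against 22.1% of all genes) and 2 fell (18.18% against 21.1%). No more than 3 fell when an array was left out. Tesc, a calcium-binding protein gene, rose from -1.75, -1.79 and 0.19 to 1.55, 1.41 and 1.31 (2.91 ± 0.32), but Sertoli-defining Amh (0.45) was not called. Sox9 was called lower, a call lost under 11 of 20 settings. The pregranulosa factor Foxl2 was well above background on all 6 arrays. It was called higher, a call lost under 7 of 20 settings.

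**Figure D4:**
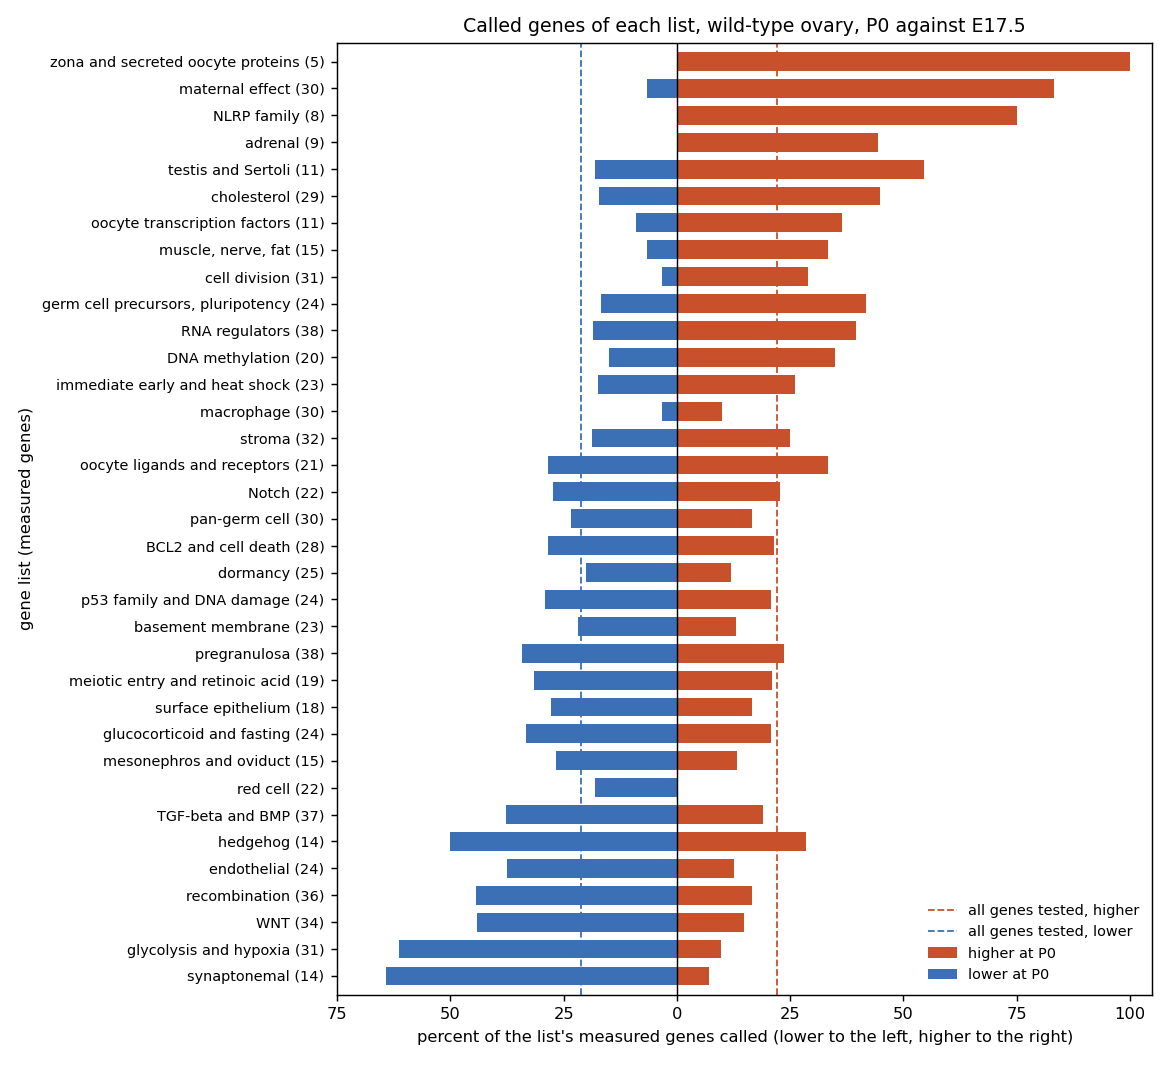
Share of each gene list's measured genes (number in brackets) that was called higher (right, red) or lower (left, blue) at P0 than at E17.5 in wild type; dashed lines mark the shares of all genes tested, 22.1% and 21.1%. The zona, maternal-effect and NLRP lists reach furthest to the right and the synaptonemal, glycolysis and hedgehog lists furthest to the left.

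The same interval was measured in Elavl2 knockout ovaries, on 6 arrays that share none with the wild type. There 7183 genes (37.2%) were called. The difference between the 2 changes, tested in the same model, was called for 2010 genes (10.4%), of which 1186 (6.15%) had the greater value in wild type and 824 (4.27%) the smaller. Without P0 wild-type replicate 2 the count was 1047, and without E17.5 replicate 2 or 3 it was 1335 or 1327. Elavl2 itself changed by 0.86 in wild type and 0.36 in knockout, a difference that was not called. Which part of Elavl2 was removed is not known here, so its probe does not check the labels.

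Of the 5 coat and secreted genes, 4 were in the first set, and the call on each held without any single wild-type array. Zp3 rose by 5.99 in wild type and 2.03 in knockout (limma, adjusted p of the difference = 0.00216), Zp1 by 5.79 and 2.11 (adjusted p = 0.00228), while Astl, called too, was not well above background in the P0 knockout. Oosp1 was not well above background on any knockout array at either stage. For Zp2 the changes were 4.22 and 2.84, and the difference was not called (adjusted p = 0.297), though it was called without E17.5 replicate 3. Of the 30 maternal-effect genes 9 had a greater change in wild type, with 7 to 13 when an array was left out. Npm2 rose by 4.66 against 0.84 (adjusted p = 2.9e-05), Zar1 by 5.81 against 1.56 and Rfpl4, an oocyte ubiquitin ligase gene, by 3.00 against 0.52, with 1 of 3 knockout arrays of each stage well above background. Others rose in both genotypes: Nlrp14 by 5.99 and 4.56, Nlrp5 by 3.35 and 4.04 and Kit by 1.30 and 1.49.

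Gdf9 rose by 3.42 and 1.40 (adjusted p of the difference = 0.00696), Pou5f1 by 3.43 against 0.47 (adjusted p = 0.0114) and Tbpl2 by 3.94 against 1.10 (adjusted p = 0.0081; 1 and 2 of 3 knockout arrays of the stages well above background). Some meiotic genes that fell in wild type changed less in knockout. Mei1 changed by -1.30 and -0.16 (adjusted p = 0.00134), Dmc1 by -2.01 and -0.69 (adjusted p = 0.0141) and Tex12 by -0.78 and 0.06 (adjusted p = 0.0065), whereas Msh4 changed by -1.47 and -1.17. Among Notch genes, Jag1 changed by 1.90 and 0.50 (adjusted p = 0.00482), Hey2 by 1.48 and -0.01 and Heyl by 0.72 and -0.10. Id3 changed by -0.96 and 0.13 (adjusted p = 0.000573). Glycolysis genes fell in both genotypes, 19 and 16 of 31 against 21.1% and 19% of all genes, with Hk2 at -1.75 and -1.88.

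**Figure D5:**
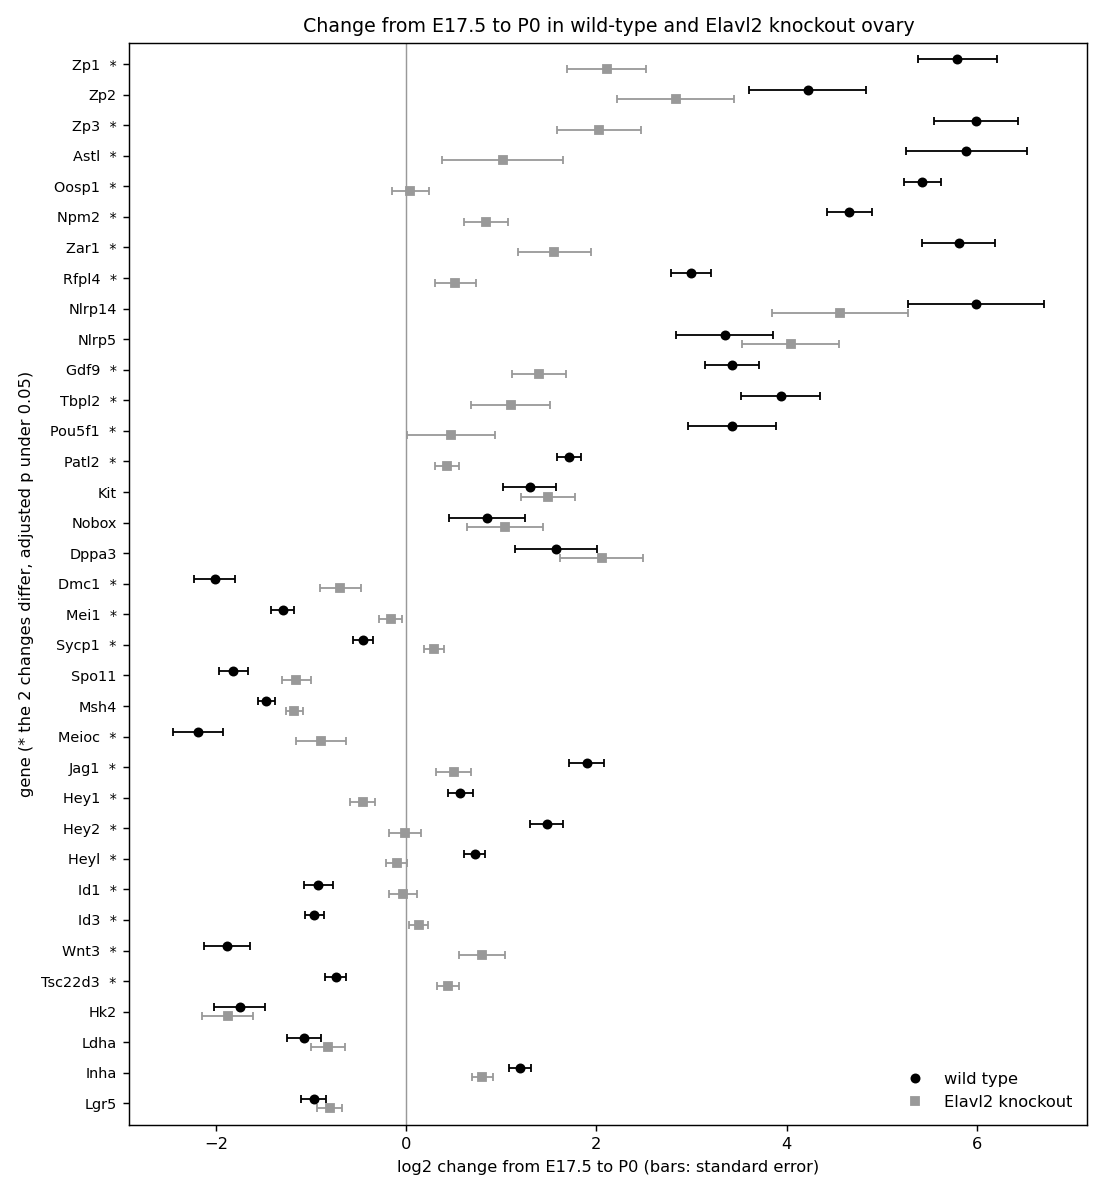
Fitted log2 change from E17.5 to P0 with its standard error for 35 genes in wild-type (black circles) and Elavl2 knockout ovary (grey squares); a star marks genes whose 2 changes differ at an adjusted p under 0.05. The coat genes Zp1 and Zp3 lie near 5.79 and 5.99 in wild type and near 2.11 and 2.03 in knockout, and Hk2 lies at -1.75 and -1.88.

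In wild type, the step from E15.5 to E17.5 came before the one described here and shares the 3 E17.5 arrays with it, so the steps are set side by side. The earlier step had 5089 genes called (26.4%), against 8352 here, and the difference between the steps was called for 3825 genes (19.8%), with 1896 (9.82%) greater and 1929 (10%) smaller in the later step. The count was 1371 without E17.5 replicate 3 and 2235 without E17.5 replicate 2. The meiotic gene Stra8 changed by -7.70 in the earlier step and -0.57 in the later one (limma, adjusted p of the difference = 0.000118). Npm2 changed by 1.24 and then 4.66 (adjusted p = 0.000183) and Zar1 by 0.66 and then 5.81. Their lists already rose in the earlier step. There 4 of 5 coat and secreted genes, 19 of 30 maternal-effect genes and 7 of 8 NLRP genes were called higher, against 15.3% of all genes. The median changes of these 3 lists were 3.20, 1.61 and 3.46 in the earlier step and 5.79, 3.17 and 2.67 in the later one. Nobox changed by 4.89 and then 0.85, Lhx8 by 4.31 and then 0.59, and Figla by 1.97 and then 0.28; these 3 differences were called (adjusted p = 0.00161, 0.00311 and 0.00659), but not without E17.5 replicate 3 (adjusted p = 0.0631, 0.0864 and 0.14), the E17.5 array of the run that held E15.5. Synaptonemal genes fell in both steps, 11 of 14 in the earlier and 9 in the later, and of the 31 glycolysis genes 1 fell in the earlier and 19 in the later, where the shares of all genes that fell were 11.1% and 21.1%.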

How the data were processed

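Each array is an Agilent 1-colour 4x44K mouse array with 1 Cy3-labelled RNA sample, grouped and numbered by its title. Per the file headers, the authors made the deposited processed intensity with Agilent Feature Extraction 10.7.3.1, which subtracts background; the submitters' processing notes give version 9.5. The deposited series matrix holds log2 values made by the authors; set against the scanner files, a column differed from the log2 intensity of its array by a constant. It was used as an alternative.

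From the scanner files, control spots were dropped, as were the 51 to 109 outlier spots of an array. Saturated spots numbered 0. The log2 intensity minus the array's 75th percentile was kept for 29203 of 41174 probes, those that a whole group's 3 arrays showed well above background, and the probe with the highest mean stood for a gene. Between 62.5% and 75.2% of probes per array were well above background, and 3 arrays per group limit the precision. Symbols were updated through a RefSeq gene table of GRCm38.p6, while probe positions are those of the files (mm9).

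Differences were fitted with limma 3.58.1 in R 4.3.3 (lmFit, eBayes) over all 18 arrays, with the 6 groups and the 2 scan runs as terms. The P0 arrays shared a run with E17.5 replicates 1 and 2, and the other run held E17.5 replicate 3 and all E15.5 arrays. List counts are read against the shares of all genes called higher and lower, and no list was tested as such. Of 833 genes on 35 lists, 771 were measured. Members, lists and named genes (the 15 largest fitted changes each way, list anchors, and up to 6 called genes per list and direction with the smallest adjusted p) were chosen with earlier results of these data known, and the text prints part of them; results for some genes are not reported here. Same-numbered replicates did not deviate together (correlations of 0.01, -0.10 and -0.04), and the main model pairs no samples by number. With 3 arrays per group these correlations cannot exclude a shared origin. The script was tested on simulated data with 100 genes changed 1.5-fold and 100 changed 2-fold. It recovered 35% and 68% of them, and 1.905% of the calls were false. Far fewer genes changed there than were called here, so these shares do not carry over directly. A gene not called may still have changed. Alternatives changed the background correction, scaling, filter, probe rule, moderation, weights, blocks, threshold and arrays used. Python 3.11.15 and matplotlib 3.10.9 made the figures.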

Additional observations from a re-analysis of the deposited data

Results flagged for a closer look

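The values here are the wild-type change from E17.5 to P0 minus the knockout change, on the log2 scale, with limma's Benjamini-Hochberg adjusted p. The test called 2010 of 19299 genes, of which only some are shown. These are genes among the 15 largest wild-type rises or falls, and named genes called in both genotypes with opposite signs. Either choice favours a large difference, so the sizes do not stand for all genes called by the test.

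The difference was 5.38 for Oosp1 (adjusted p = 4.83e-07), 4.88 for Astl (adjusted p = 0.0048), 4.87 for Gtsf1l (adjusted p = 0.0012) and 4.72 for Ifi207 (adjusted p = 0.00182); none of these 4 was well above background in the P0 knockout, nor Slco4a1. Khdc1a, Trav9n-2, Oosp1, Gtsf1l and Ifi207 were not so at E17.5 in wild type, and Hoxd1, Defa6 and Wnt3 not at P0 in wild type. For these genes the fitted difference is no exact size and gives no order. Khdc1a differed by 4.58 (adjusted p = 0.00267), Zar1 by 4.25 (adjusted p = 0.00057), Zp3 by 3.96 (adjusted p = 0.00216) and Zp1 by 3.68 (adjusted p = 0.00228). Slco4a1 differed by 3.52 (adjusted p = 0.00356), Oas1c by 3.07 (adjusted p = 0.000922) and Trav9n-2 by 2.71 (adjusted p = 0.0262). The call on Trav9n-2 ended without E17.5 replicate 2 or 3 or P0 replicate 2 (adjusted p up to 0.0873).

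Other genes had fitted changes of opposite sign. Chga, a chromaffin granule gene, differed by 2.20 (1.32 in wild type and -0.88 in knockout), the Notch target Hey1 by 1.03 (0.57 and -0.46), the activin subunit gene Inhbb by 0.92 (0.41 and -0.51) and the sterol enzyme gene Sqle by 0.55 (0.27 and -0.28). The central synaptonemal gene Sycp1 differed by -0.75 (-0.45 and 0.30), the neurotrophin receptor gene Ntrk2 by -1.14 (-0.57 and 0.57) and the glucocorticoid target Tsc22d3 by -1.18 (-0.74 and 0.44). The difference for Ntrk2 was not called without E17.5 replicate 3 (adjusted p = 0.0594). The wild-type changes of Inhbb, Ntrk2 and Sqle were themselves not called without certain single arrays (adjusted p up to 0.219, 0.114 and 0.0718). Without the run term, or with the replicate number as a block in its place, the wild-type changes of Sycp1, Tsc22d3, Ntrk2 and Sqle were not called.

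Among genes that fell in wild type, Hoxd1 differed by -1.41 (adjusted p = 0.0411), Nkx2-4 by -2.39 (adjusted p = 0.00232) and Defa6, a defensin gene, by -2.48 (adjusted p = 0.00277). Wnt3 differed by -2.69. The call on Hoxd1 ended without E17.5 replicate 1 or 2 or P0 replicate 2 or 3 (adjusted p up to 0.101).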

How the results depend on the processing

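Of 8352 genes called, 5320 passed an adjusted p under 0.01. The 2093 genes past 2-fold became 590 with normexp background correction and quantile normalization, and 1264 under a stricter filter, where fewer genes were tested. The 2010 differences between genotypes became 1028 without the run term and 3730 with array weights. With the replicate number as a block in place of the run term, 7297 genes were called, 1606 past 2-fold, and 1029 differences between genotypes and 3183 between steps. Leaving out 1 array gave 6182 to 8075 genes called, 1839 to 2142 past 2-fold, 1047 to 2026 differences between genotypes (fewest without P0 replicate 2) and 1371 to 3605 between steps (fewest without E17.5 replicate 3). Median scaling moved the median change of all genes from 0.01 to -0.15 and the share of higher genes among those called from 51.2% to 31.4% (42.9% with quantile normalization). Among those past 2-fold this share went from 74.1% to 59.3% and 59.8%, and among differences between genotypes it went from 59% to 31.4% under median scaling.

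With the mean of a gene's probes the direction turned for Bmf (0.34), Foxo3 (-0.66), Insr (0.16), Kmt2b (0.14), Lama3 (0.25), Lss (-0.14), Mtor (0.18), Numb (0.020), Ptch1 (0.61) and Taf4b (-0.56); the cause was not tested. Of 391 eligible genes 337 were called, and 206 kept call and direction under every setting that tested them; 352 were tested under all 20, and 177 of these kept both. The comparison with the earlier step could not be run within a single scan run, since the run of the P0 arrays held no E15.5 array. Fitted sizes of genes below background in a group depend on dim signals and are not exact.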

Other observations

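These gene families were picked after their values were seen, and are described without a test of the family. Of 31 measured Hox genes, which set position along the body axis, 15 fell (48.4% against 21.1% of all genes) and 1 rose. The median change was -0.41. With arrays scaled by their median 18 fell (58.1%), where 30.4% of all genes fell. Of 33 keratin genes, 17 rose (51.5% against 22.1% of all genes) and 1 fell, with a median change of 0.81. With normexp background correction and quantile normalization 16 rose (48.5% against 19.4%) and 5 fell, with a median of 0.32. With median scaling 14 rose (42.4% against 13.9%) and 4 fell. Of 19 F-box genes of the Fbxw series, several of them oocyte-expressed, 11 rose (57.9% against 22.1% of all genes) and 1 fell. The median change was 2.98, and 1.26 with normexp background correction and quantile normalization.

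Of 702 measured genes on the X chromosome, 106 (15.1%) were called higher and 212 (30.2%) lower at P0, against 22.1% and 21.1% of all genes. In knockout over the same interval the shares were 18.4% and 21.9% on the X, against 18.2% and 19% of all genes. Under median scaling the wild-type shares on the X were 8.55% and 40.5%, against 13.9% and 30.4% of all genes. Under quantile normalization they were 12.8% and 35.2%, against 19.3% and 25.7%. Whether the X differed from other chromosomes was not tested.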
